A study of Mus musculus with 4 samples.

Results

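The genes of 9 surface molecules, through which macrophages and other leukocytes signal to T cells or which mark leukocyte activation, were examined: Cd80, Cd86, Cd40, Cd83, Cd274, Pdcd1lg2, Icosl, Cd69 and Cd28. They are 9 of the 18193 genes that had at least 1 probe set with a single gene symbol in the platform annotation, and every such probe set of a member was taken, 17 in all. The genes were selected on a shared role and with the measured zymosan minus unstimulated differences of these same arrays in view, so those differences are a description. Limma's calls of the members are counted beside the calls over all probe sets, and support nothing.

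Expression was measured on 4 Affymetrix Mouse430_2 arrays of bone marrow-derived macrophages from MyD88 -/- mice, grown for 6 days with recombinant human M-CSF. The groups compared had 2 arrays each: cells given 100 ug/ml zymosan, a yeast cell wall particle, for 120 min, and cells left unstimulated (0 min). Every array, the unstimulated ones included, lacks a functional Myd88 gene, the adaptor of most Toll-like receptors, and no wild-type array was analysed here. Whether replicate arrays stand for different mice or cultures is not labelled, so the p-values cover no more than the scatter of these arrays, part of which may be technical.

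Naive T cells need a first signal from antigen on MHC molecules and a second, costimulatory signal from the presenting cell. Cd80 and Cd86 encode the B7 ligands that engage CD28 to activate T cells and CTLA-4 to restrain them, while the PD-1 ligands encoded by Cd274 (PD-L1) and Pdcd1lg2 (PD-L2) inhibit T cells. In resting macrophages several of these molecules are low, and microbial stimuli are known to raise them.

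The arrays did not all come from like animals or days. Xist, a transcript of female cells, had log2 values of 11.02 and 10.80 on the zymosan arrays, against 5.78 and 11.02 on unstimulated arrays 1 and 2. The Y-linked gene Eif2s3y had 3.02 and 3.19 on the zymosan arrays, against 8.30 and 2.98 on unstimulated arrays 1 and 2. Unstimulated array 1 thus had a male pattern of these genes and the other 3 arrays a female one. These genes were looked at after their values were known. For Cd86, Cd40, Cd83, Cd274 and Cd28 the text also gives the difference against unstimulated array 2 alone. Differences of genes in the other lists are given against the mean of both unstimulated arrays. Both zymosan arrays were processed on 1 day, by another operator than the unstimulated ones and under another project. That day was 153 days after unstimulated array 1 and 137 days after unstimulated array 2. The stimulus therefore cannot be told apart from the processing day or the operator. The unstimulated cells were labelled 0 min, and no unstimulated array at 120 min was analysed here. The stimulus thus cannot be told apart from the 120 min of further culture and handling either. The unstimulated arrays have LPS and PIC in their titles, although the treatment field says that these cells were given no stimulus. All 10 macrophage markers of a list lay above the level of the filter described below on every array, with log2 values from 7.56 to 14.11, although 5 of them, Itgam, Fcgr1, Adgre1, Cd14 and Csf1r, were lower with zymosan.

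After 120 min of zymosan, transcripts of 5 of the 9 molecules were higher: Cd69, Cd28, Cd83, Cd86 and Cd274. The 6 probe sets of the last 4 genes were 1.26 to 2.39 higher with zymosan on the log2 scale, and Cd69 was at least 5.66-fold higher, from below the filter's level. Cd40, Cd80 and Icosl differed by -0.04 to 0.46 at the 6 probe sets that passed the filter on dim signals, and Pdcd1lg2 did not pass it. Of these 3 genes, only Cd40 had groups that did not overlap, with zymosan higher at each of its probe sets. That filter kept a probe set that reached the 40th percentile of the array (4.36 to 4.39) on at least 2 arrays. It kept 13 of the 17 probe sets and 8 of the 9 genes. The other 4 probe sets lay below that level on all 4 arrays. Limma's fit over all 27571 kept probe sets called 7 of the 13 higher at an adjusted p under 0.05, where it called 8.48% of all kept probe sets higher. At an unadjusted p under 0.05, 8 of the 13 were higher in that fit. It called 0 of the 13 lower, where 0 also had an unadjusted p under 0.05, and 7.45% of all kept probe sets were called lower. All 7 were at least 2-fold higher by fitted value, against 2.41% of kept probe sets. The arrays of the groups did not overlap, with zymosan higher, at 10 of the 13, against 30.4% of kept probe sets, and with zymosan lower at 0 of the 13, against 30.2%. Nothing is read from these shares, since the contrast was known when the genes were chosen. The median difference of all 17 probe sets was 0.30, and that of all kept probe sets was -0.01. With day as a random block, limma called 6 of the 13 higher, and 741 of all 27571 kept probe sets. The call of Cd274 was lost with that block and without either zymosan array, and that of Cd83 without zymosan replicate 2.

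**Figure D1:**
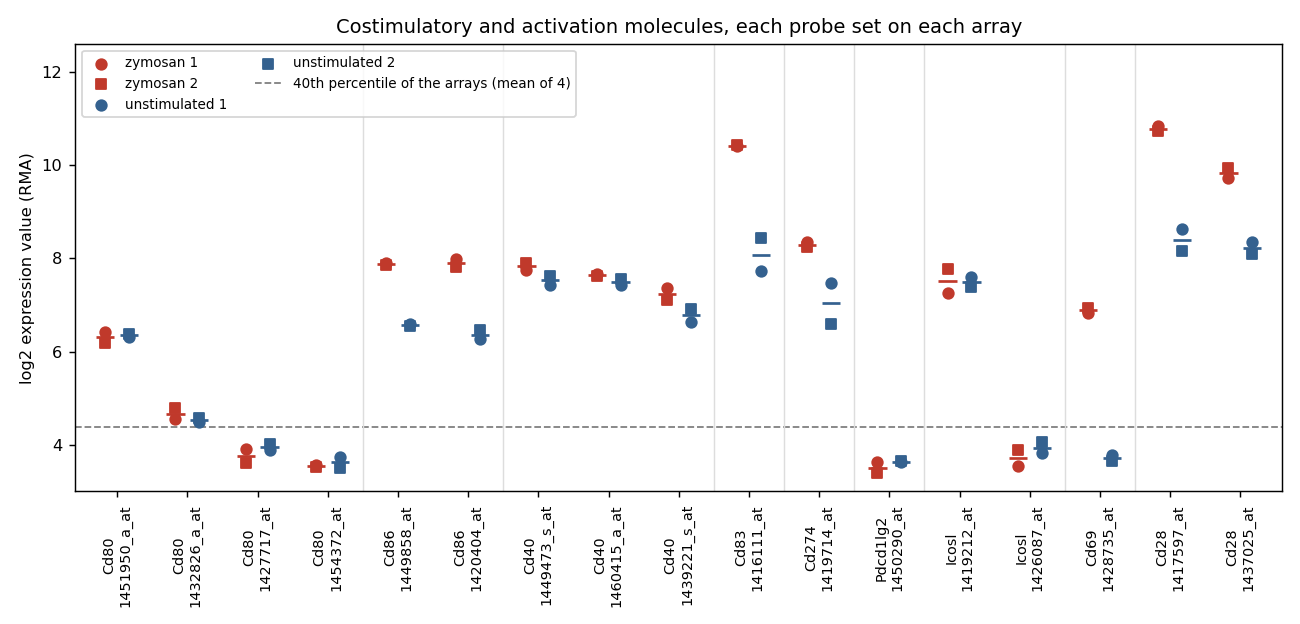
Log2 expression value (vertical axis) of each of the 17 probe sets of the 9 genes (horizontal axis) on the zymosan arrays (red, left of each pair) and the unstimulated arrays (blue, right). Circles are replicate 1 and squares replicate 2, short lines are group means, and the dashed line is the level of the filter. The red and blue points stand clearly apart for Cd86, Cd83, Cd274, Cd69 and Cd28, and lie close together for Cd80, Cd40 and Icosl.

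Among the B7 ligands, Cd86 was higher with zymosan and Cd80 was not. Probe set 1449858_at of Cd86 had log2 values of 7.91 and 7.86 on the zymosan arrays, against 6.59 and 6.54 on the unstimulated arrays. The arrays of each group lay 0.05 apart, and the groups did not overlap. The difference was 1.32 (SE 0.10), a 2.49-fold higher level. The other probe set of Cd86, 1420404_at, had 7.98 and 7.81 with zymosan, against 6.27 and 6.45 without. It was 1.53 higher (SE 0.12), so both probe sets gave a similar reading. Against unstimulated array 2 alone the differences of Cd86 were 1.34 and 1.44.

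Cd80 has 4 probe sets. The brightest, 1451950_a_at, had log2 values of 6.43 and 6.19 with zymosan, against 6.32 and 6.37 without. The zymosan values lay on both sides of the unstimulated ones, and the difference was -0.04 (SE 0.12). Probe set 1432826_a_at lay just above the filter's level, at 4.55 and 4.79 with zymosan and 4.50 and 4.58 without. It was 0.13 higher (SE 0.13), again with overlapping groups. Probe sets 1427717_at and 1454372_at lay below the filter's level on all arrays, between 3.51 and 4.01, so no change could be read there. In these cells the B7 ligands thus gave unlike readings in the same contrast, with Cd86 higher at both of its probe sets and Cd80 at neither of its kept ones. A difference between the 2 genes was not tested.

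Icosl, the B7 relative that engages the T cell receptor ICOS, did not separate the groups. Probe set 1419212_at had log2 values of 7.25 and 7.77 with zymosan, against 7.60 and 7.39 without. The zymosan arrays enclosed the unstimulated ones, and the difference was 0.01 (SE 0.20). The gap of 0.52 between the zymosan arrays is wide for this pair of arrays, where 95% of kept probe sets differed by less than 0.41. The other probe set, 1426087_at, lay at 3.55 to 4.05 on all arrays, below the filter's level.

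The ligands of PD-1 differed from each other in level relative to the filter, and a change could be read for Cd274 alone. Cd274 had log2 values of 8.35 and 8.24 with zymosan, against 7.47 and 6.60 without, at its only probe set, 1419714_at. Both zymosan arrays were above both unstimulated ones, which lay 0.87 apart. The difference was 1.26 (SE 0.28), or 2.39-fold, and ran from 0.77 to 1.75 over the 4 pairs of a zymosan and an unstimulated array. It was 0.82 against unstimulated array 1 alone and 1.69 against unstimulated array 2 alone. Pdcd1lg2 lay at 3.63 and 3.39 with zymosan and 3.63 and 3.65 without, below the filter's level on all arrays, so it was not tested. The genes are neighbours on mouse chromosome 19, with 1 gene listed between them in RefSeq (GRCm38.p6), a non-coding one.

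RefSeq promoter windows of GRCm38.p6, from 250 bases before to 50 after the start of the gene, were found for 4 of the 9 genes: Cd274, Pdcd1lg2, Cd80 and Icosl. Cd86, Cd40, Cd83, Cd69 and Cd28 were not matched. The 4 windows are shown because they were the ones found. They belong to ligands of 1 protein family that read differently on these arrays. Cd274 was higher, Cd80 and Icosl did not separate the groups, and Pdcd1lg2 lay below the filter's level. Capitals mark matches, on either strand, to motifs of factors that act downstream of microbial or interferon signals. These were the NF-kB site by its kappaB consensus, the AP-1 site TGANTCA, the interferon-stimulated response element GAAANNGAAA and the STAT site TTCNNNGAA. All windows lie on the plus strand.
Cd274, chr19:29367188-29367487: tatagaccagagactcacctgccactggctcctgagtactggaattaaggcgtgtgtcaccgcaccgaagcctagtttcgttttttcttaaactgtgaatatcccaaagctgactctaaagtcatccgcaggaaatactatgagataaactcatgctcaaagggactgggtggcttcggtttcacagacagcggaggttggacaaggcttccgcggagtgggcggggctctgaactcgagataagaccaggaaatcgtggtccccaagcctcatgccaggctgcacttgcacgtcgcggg
Pdcd1lg2, chr19:29410669-29410968: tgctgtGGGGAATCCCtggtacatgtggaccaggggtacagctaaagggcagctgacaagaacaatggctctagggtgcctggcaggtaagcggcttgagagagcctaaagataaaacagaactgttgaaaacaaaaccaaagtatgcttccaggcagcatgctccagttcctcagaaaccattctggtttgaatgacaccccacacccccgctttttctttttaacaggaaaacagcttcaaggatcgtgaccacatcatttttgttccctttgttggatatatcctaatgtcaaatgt
Cd80, chr16:38458683-38458982: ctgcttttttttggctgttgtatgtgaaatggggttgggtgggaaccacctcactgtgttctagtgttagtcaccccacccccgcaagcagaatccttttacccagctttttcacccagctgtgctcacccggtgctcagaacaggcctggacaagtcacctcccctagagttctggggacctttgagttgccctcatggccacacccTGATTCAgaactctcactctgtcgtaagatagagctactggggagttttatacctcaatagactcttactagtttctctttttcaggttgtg
Icosl, chr10:78069118-78069417: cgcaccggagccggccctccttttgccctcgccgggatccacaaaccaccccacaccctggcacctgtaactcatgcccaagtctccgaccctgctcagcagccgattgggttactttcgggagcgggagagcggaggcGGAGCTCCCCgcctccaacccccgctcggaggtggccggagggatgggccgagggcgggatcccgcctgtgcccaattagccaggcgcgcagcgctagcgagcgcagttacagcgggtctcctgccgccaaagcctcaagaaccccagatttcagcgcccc
The kappaB matches lay 244 to 235 bases before the start in Pdcd1lg2 and 111 to 102 bases before it in Icosl, and the AP-1 match 42 to 36 bases before it in Cd80. No 2 matches overlapped, and the Cd274 window held none of the 4 motifs. Of all 32851 windows, 8.46% held a kappaB match, 7.81% an AP-1 match, 3.44% the interferon-stimulated response element and 8.3% the STAT site. A match describes letters and not a bound site.

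Cd40, the receptor through which T cells that carry CD40 ligand signal back to the macrophage, had small differences at each of 3 probe sets. Probe set 1439221_s_at had log2 values of 7.37 and 7.11 with zymosan, against 6.64 and 6.92 without. Probe set 1449473_s_at had 7.76 and 7.90 with zymosan, against 7.42 and 7.63 without. Probe set 1460415_a_at had 7.67 and 7.62 with zymosan, against 7.44 and 7.56 without. The groups did not overlap at any of these probe sets. The differences were 0.46 (SE 0.15), 0.30 (SE 0.13) and 0.14 (SE 0.11), and all 3 were among the 6 kept probe sets not called. Against unstimulated array 2 alone they were 0.32, 0.20 and 0.08.

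Cd83, an immunoglobulin-type surface protein used as a marker of mature dendritic cells, was 5.07-fold higher with zymosan. Its only probe set, 1416111_at, had log2 values of 10.42 and 10.42 on the zymosan arrays, against 7.72 and 8.44 on the unstimulated arrays. The zymosan arrays were 0.01 apart and the unstimulated ones 0.72 apart, and every zymosan value lay at least 1.98 above every unstimulated one. The difference was 2.34 (SE 0.24), and 1.98 against unstimulated array 2 alone. It was the 60th largest increase among the 27571 kept probe sets.

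Cd69, a C-type lectin-like receptor that appears early on activated leukocytes and holds lymphocytes in tissue, was below the filter's level without zymosan and above it with zymosan. Probe set 1428735_at had log2 values of 6.84 and 6.95 with zymosan, against 3.78 and 3.65 without. Below that level the array gives only a bound. Set against the level, Cd69 was at least 5.66-fold higher with zymosan. The probe set passed the filter through the zymosan arrays alone, so it had to differ to be kept.

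Cd28, the T cell receptor for Cd80 and Cd86, was well above the filter's level in these macrophages and higher with zymosan. Probe set 1417597_at had log2 values of 10.84 and 10.73 with zymosan, against 8.63 and 8.16 without. The groups were at least 2.10 apart. The difference was 2.39 (SE 0.17), or 5.23-fold, and was the 57th largest increase. Probe set 1437025_at had 9.73 and 9.95 with zymosan, against 8.34 and 8.09 without, and was 1.62 higher (SE 0.14), or 3.08-fold. Both probe sets agreed in direction and differed in size. Against unstimulated array 2 alone the differences were 2.62 and 1.75.

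**Figure D2:**
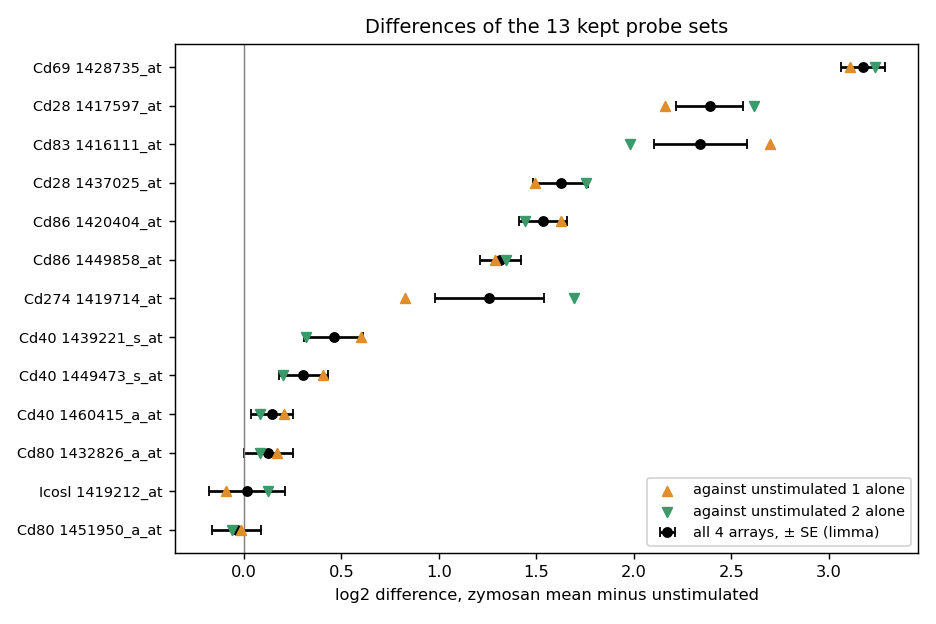
Log2 difference, zymosan mean minus unstimulated (horizontal axis), of the 13 probe sets that passed the filter (vertical axis, ordered by difference). Black points use all 4 arrays with limma's standard error (SE), and triangles set the zymosan mean against a single unstimulated array. The fitted points of Cd69 use unstimulated values below the filter's level, so only its bound of at least 5.66-fold is read. Cd83 and Cd274 are the probe sets whose triangles lie widest apart, at 2.70 and 1.98 for Cd83 and 0.82 and 1.69 for Cd274.

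The unstimulated arrays lay far apart at some of these genes and not at others. Over all kept probe sets the median gap between the unstimulated arrays was 0.15, and 95% of gaps were below 0.58. Cd274 (0.87) and Cd83 (0.72) lay beyond that, in opposite directions: Cd274 was higher on unstimulated array 1 and Cd83 on unstimulated array 2. The gap was 0.46 and 0.26 at the probe sets of Cd28 and at most 0.29 at those of Cd40, Cd80, Cd86, Cd69 and Icosl. The gap between the zymosan arrays was at most 0.31 at every probe set but 2, both of Icosl (0.52 and 0.33).

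**Figure D3:**
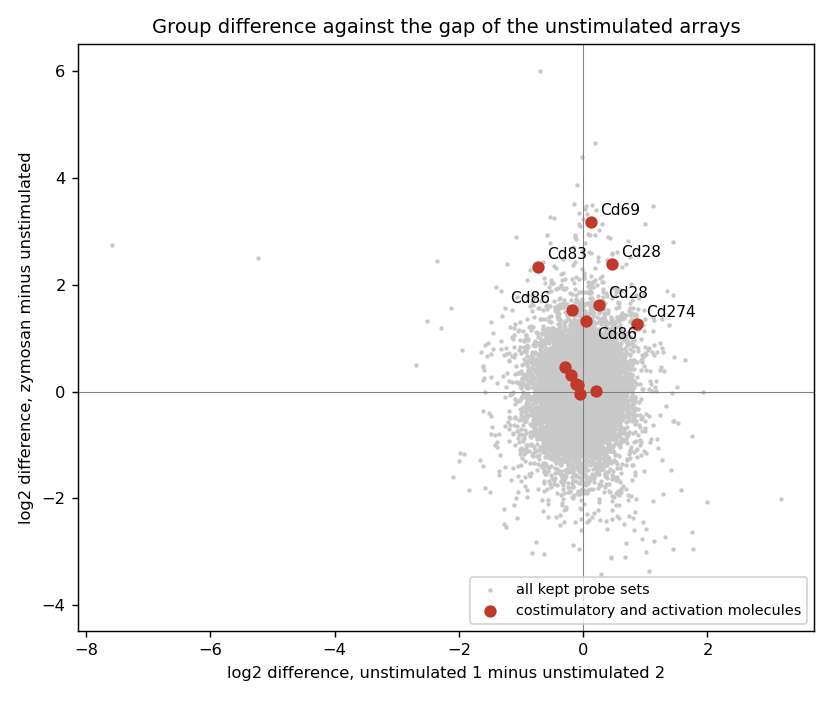
Log2 difference between the groups (zymosan minus unstimulated, vertical axis) against the gap within the unstimulated pair (unstimulated 1 minus unstimulated 2, horizontal axis), with 1 point per kept probe set. Red points are the 13 probe sets described here. Cd83 lies farthest to the left of the centre line among them (-0.72) and Cd274 farthest to the right (0.87), with the probe sets of Cd28 between (0.46 and 0.26).

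Markers of other cell types were read beside these genes, since Cd28 and Cd69 are best known from T cells and the activation markers from dendritic cells. In a bulk sample, more cells of a type and more RNA per cell cannot be told apart. Of 9 T and NK cell markers on the array, Cd3d, Cd3g, Cd2, Thy1 and Ncr1 lay below the filter's level on all 4 arrays. The other 4 (Cd3e, Cd4, Cd8a and Cd247) did not pass limma's test, and 0 of them had an unadjusted p under 0.05. Their list summed to 263 to 283 on the linear scale with zymosan and 279 to 287 without. The part of these cells in the values of Cd28 and Cd69 was not tested. Of 8 dendritic cell markers, Ccr7 and Xcr1 lay below the level on all arrays. Limma called 0 of the 6 tested higher, against 10.1% of all genes, and 1 lower, against 6.73%. This 1 was Itgax, which fell by 0.93 (adjusted p = 0.00479, limma). That call was lost without zymosan replicate 1 or zymosan replicate 2 (adjusted p = 0.0598 and 0.0605), where limma called 0 lower and 1 had an unadjusted p under 0.05. That list summed to 307 to 308 with zymosan and 379 to 387 without. Of 5 B cell markers, Ms4a1 lay below the level on all arrays, and Cd79b fell by 0.58 with zymosan (adjusted p = 0.0143, limma). This call was lost with day as a random block (adjusted p = 0.0587) and without zymosan replicate 1 or zymosan replicate 2 (adjusted p = 0.111 and 0.14). The B cell list summed to 134 to 141 with zymosan and 145 to 154 without. Over all genes tested limma called 10.1% higher and 6.73% lower, so nothing is read from the counts of calls in these short lists.

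Granulocyte genes did move with the zymosan arrays. Of 9 granulocyte and precursor genes, 8 were higher, against 10.1% of all 13222 genes tested, and Ltf, an iron-binding granule protein, did not pass. Mpo, which encodes myeloperoxidase, was 3.23 higher and S100a8, a calprotectin subunit, 2.49 higher on the log2 scale. The list summed to 4492 to 4667 with zymosan, against 1018 to 1108 without, and none of its 9 genes lay below the filter's level on all arrays. The part of these cells in the higher Cd69, Cd28, Cd83, Cd86 and Cd274 was not tested. Of 10 macrophage markers, 5 were lower, against 6.73% of all genes, and 1, Msr1, was higher. The integrin gene Itgam fell by 1.66, the Fc receptor gene Fcgr1 fell by 1.10, Adgre1 (F4/80) fell by 0.82 and the LPS co-receptor gene Cd14 fell by 0.70 (adjusted p = 0.00103, 0.00351, 0.00814 and 0.0103, limma). With day as a random block, the calls of Msr1 and Csf1r were lost (adjusted p = 0.0729 and 0.136), which left 4 lower and 0 higher, where 1 was higher at an unadjusted p under 0.05. Without unstimulated replicate 2, 2 were higher and 4 lower. Without zymosan replicate 1 or zymosan replicate 2, 2 were lower each time and limma called 0 higher, where 1 had an unadjusted p under 0.05.

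Besides Cd28, the T cell partners of these molecules were at or near the dim end of the arrays. Ctla4 (3.60 and 3.71 with zymosan, 3.81 and 3.65 without), Icos (4.29 and 4.02 with zymosan, 4.35 and 4.11 without) and Pdcd1, which encodes PD-1 (3.65 and 3.53 with zymosan, 3.46 and 3.52 without), lay below the filter's level on all arrays. Cd40lg, which encodes CD40 ligand, had 4.91 and 4.68 with zymosan, against 5.01 and 5.02 without. It was just above that level and did not pass the test (difference -0.22, adjusted p = 0.247, limma).

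A list of B7 and CD28 relatives, which also held genes outside these families (Pvr and Lgals9 among them), had calls in both directions. Of 9 tested, 1 was higher and 2 were lower, against 10.1% and 6.73% of all genes, with a median difference of -0.10 where that of all genes was 0.00434. Pvr, a nectin-like ligand of the T cell receptors TIGIT and CD226, had 8.84 and 8.83 with zymosan, against 7.53 and 6.96 without. It rose by 1.59 (SE 0.19, adjusted p = 0.00609, limma), and 4 of its 5 kept probe sets passed the test. Lgals9, the gene of galectin-9, fell by 0.88 (adjusted p = 0.0082), and Vsir, which encodes the inhibitory B7 relative VISTA, fell by 0.67 (adjusted p = 0.0111). Without zymosan replicate 1 or zymosan replicate 2 limma called 0 of the 9 in either direction, where 2 and 1 were higher and 2 each time lower at an unadjusted p under 0.05. Without unstimulated replicate 1, 3 were higher.

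In the TNF family of costimulators, 1 of 9 was higher and 1 lower, against 10.1% and 6.73% of all genes. Tnfsf9, the 4-1BB ligand, had 9.77 and 9.49 with zymosan, against 8.35 and 8.38 without, and rose by 1.27 (SE 0.12, adjusted p = 0.0036, limma). Its receptor gene Tnfrsf9 differed by -0.08 (adjusted p = 0.593). Tnfsf14, which encodes LIGHT, had 4.71 and 4.50 with zymosan, against 6.23 and 5.53 without, and fell by 1.28 (SE 0.23, adjusted p = 0.0186). The call of Tnfsf9 held without either zymosan array. That of Tnfsf14 did not, where limma called 0 lower and 1 had an unadjusted p under 0.05. Among SLAM and CD2 family genes, surface receptors that pair cells of the immune system, 0 of 8 were higher (0 at an unadjusted p under 0.05) and 3 were lower, against 6.73% of all genes. Slamf9 fell by 0.71, Ly9 fell by 0.73 and Slamf6 fell by 0.38 (adjusted p = 0.00796, 0.0146 and 0.0498, limma). Limma called 0 of them without zymosan replicate 1 or zymosan replicate 2, where 3 and 2 had an unadjusted p under 0.05, and 1 with day as a random block. The call of Slamf6 was also lost with no filter, under both other normalizations, with the trended prior and without either unstimulated array (adjusted p = 0.0522 to 0.0773), and 2 of the list were lower with the filter at the 60th percentile, where Slamf6 was not kept.

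The genes that act downstream of CD40 were higher in part, though Cd40 itself differed little. Of 12 tested, 5 rose and 0 were called lower (1 at an unadjusted p under 0.05), against 10.1% and 6.73% of all genes, with a median difference of 0.33. That 1 was Map3k14, which differed by -0.36 without overlap of the groups (adjusted p = 0.0577, limma). With the filter at the 60th percentile, and with the mean of all kept probe sets, limma called 1 of the list lower. The NF-kB subunit genes Relb and Rel rose by 1.18 and 1.21 and Nfkb2 by 0.66 (adjusted p = 0.00231, 0.00518 and 0.0101, limma). The adaptor gene Traf1 rose by 1.35 (adjusted p = 0.00679) and Birc3, a ubiquitin ligase of this pathway, by 1.30 (adjusted p = 0.00361). Another kept probe set of Birc3 was 0.46 higher and did not pass (adjusted p = 0.104). Without zymosan replicate 1, 3 of the 12 were higher, and 4 without zymosan replicate 2. Many stimuli besides CD40 use these genes.

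Few MHC class II genes, which carry the first signal, were called, and nothing is read from their count. Of 11 tested, limma called 0 higher (0 at an unadjusted p under 0.05) and 1 lower, against 10.1% and 6.73% of all genes, with a median difference of -0.17. Cd74, the invariant chain, had 8.11 and 8.09 with zymosan, against 9.62 and 8.77 without, and fell by 1.10 (SE 0.26, adjusted p = 0.0409, limma). Its call was lost without either zymosan array and with day as a random block, where limma called 0 of the list and 1 to 3 had an unadjusted p under 0.05. Without unstimulated replicate 2, which leaves the unstimulated array of higher Cd74, 4 were lower.

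**Figure D4:**
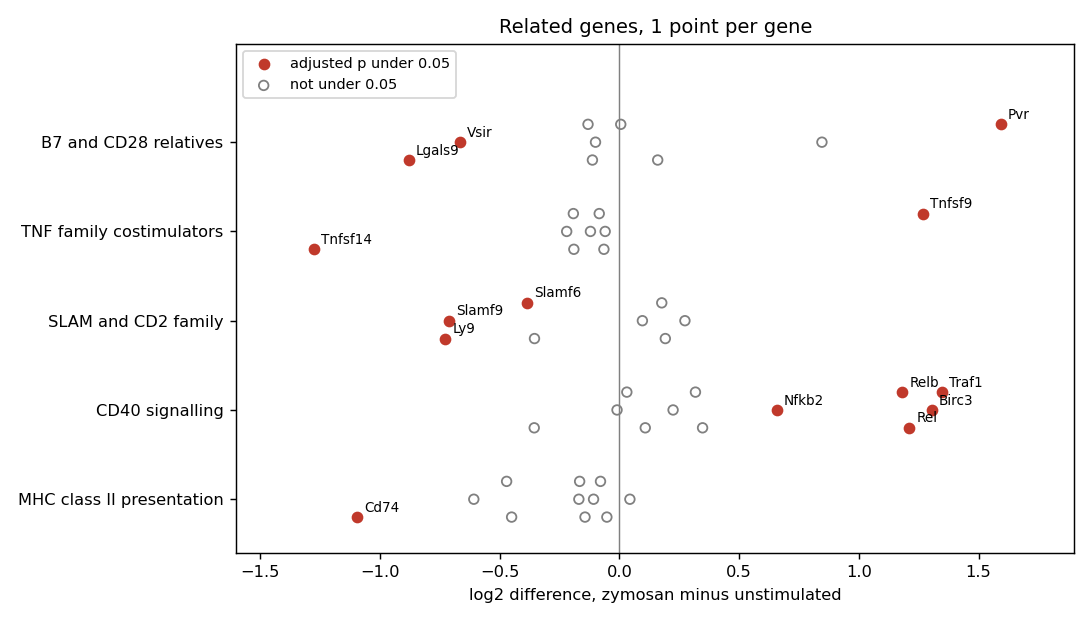
Log2 difference, zymosan minus unstimulated (horizontal axis), of the tested genes in 5 lists (rows), each gene by its probe set of highest mean. Filled points are past an adjusted p of 0.05 by limma, and height within a row has no meaning. CD40 signalling has 5 named genes to the right of 0 and none to the left, and the SLAM and CD2 family has 3 to the left.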

How the data were processed

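The authors deposited log2 values for each probe set, computed with RMA (background subtraction, normalization between arrays and a summary of the probes) per the submitters' processing notes. The sources used here do not give its version, the arrays normalized together or a genome build. No further normalization was applied. The settings recorded with each array were read only for its hybridization date, operator and project. Gene names came from the platform annotation, and probe sets with several symbols were not used.

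Of 45037 probe sets that are not controls, 27571 reached the 40th percentile of the array on at least 2 arrays. Lists used the probe set of highest mean per gene (13222 genes). Differences (zymosan minus unstimulated) were fitted with lmFit and eBayes in limma 3.58.1 (R 4.3.3), 2-sided, with p-values adjusted by Benjamini-Hochberg over every kept probe set (or gene), and called under 0.05. The fit was tested on simulated data. SDs are over 2 arrays, and the number of arrays limits the precision. Exact permutation of 2 against 2 arrays cannot reach 0.05.

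Named genes were all probe sets of the members, their binding partners and at most 4 called genes with the lowest p from each other list. The nearest genes to the extreme members, also in the rule, are not given, since both of those probe sets lay below the filter's level in at least 1 group. Mpo, S100a8, Ltf, Csf1r, Msr1, Tnfrsf9, Nfkb2 and Map3k14 are also named as examples of their lists, and Xist and Eif2s3y as a check of the arrays. Some markers of T and NK, dendritic and B cells that were below the filter's level or not called are named too. The members and lists were chosen with earlier results of these data known.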

Additional observations from a re-analysis of the deposited data

How the results depend on the processing

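The 11 alternatives run were no filter, a filter at the 60th percentile, quantile normalization again, arrays shifted to a common median, the trended prior, the processing day as a random block, each array left out in turn, and, for genes, the mean of all kept probe sets. The planned estimate of the day correlation could not be had with 4 arrays, so 0.54 was taken from the spread within the pairs, a choice made after seeing the data. The number of probe sets called with all arrays was 2339 higher and 2054 lower, and that of genes 1335 and 890. Under the random day block these were 741 and 647 probe sets and 507 and 347 genes. Leaving out 1 array at a time gave 231 to 2531 probe sets higher and 157 to 2280 lower, and 161 to 1782 genes higher and 100 to 1133 lower, with the lowest counts each time without zymosan replicate 2. The cause was not tested. Of the 13 probe sets of the costimulatory and activation molecules, 7 were called higher with all arrays, where 2339 of all probe sets were. Under the random day block 6 of the 13 were called higher, where 741 of all probe sets were. In both fits 0 of the 13 were called lower (0 lower also at an unadjusted p under 0.05 with all arrays). Nothing is read from these counts, since the contrast was known when the genes were chosen. The 37 differences counted next include those 7. Of 37 called differences of single genes or probe sets, 18 kept their call in all alternatives run, 19 lost it in at least 1 and 0 changed sign. When limma was fitted with 1 array in a group, that array was assumed to vary like the others. No paired analysis was possible because the labels give no replicate numbers that the groups share. Signals below the filter's level give only a bound.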
